A study of Mus musculus with 12 samples.

Results

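Azgp1 encodes zinc-alpha-2-glycoprotein, and its RNA was followed here as 1 of 11614 genes measured in mouse kidney cortex. The gene was picked from the measurements themselves: its level in NASH was set against control within each replicate number at both times, and it lay lower in all 6 such pairs. The NASH differences of Azgp1 are therefore given as a description, with no test. NASH stands for non-alcoholic steatohepatitis, in which a fat-laden liver is inflamed. All mice were C57BL/6J, and each group has 3 RNA sequencing libraries. The NASH groups received a Western diet and carbon tetrachloride (CCl4), a liver toxin, for 24 or 12 weeks, and the control groups a normal diet with corn oil. For the groups the labels list 10 mice in NASH at 24 weeks, 8 in control at 24 weeks, and 6 each in NASH and control at 12 weeks, with equal numbers of males and females. They do not say which sex a library came from, nor whether a library is 1 animal or a pool, so every p-value below measures the spread between these libraries, which may be technical. Diet, CCl4 and liver disease cannot be told apart in these groups.

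Zinc-alpha-2-glycoprotein is a secreted glycoprotein with the fold of an MHC class I heavy chain, but it folds without the light chain beta-2-microglobulin and binds small hydrophobic ligands in its groove. It is made in liver, fat and several epithelia including kidney tubules, and it is known as an adipokine that promotes the release of fatty acids from fat cells, a process reported to run through beta-adrenergic receptors. Mice that lack it have been reported to develop more scarring of the kidney after injury.

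On build mm10 the files place Azgp1 (gene ID 12007) on the plus strand of chromosome 5, from 137981521 to 137990232. In the GENCODE M21 annotation of the same build the gene has 4 exons, the first of which starts at 137981539, a coding length of 921 bases (307 codons) and 0 overlapping genes on either strand. The 250 bases in front of the gene are shown because the results concern the level of RNA from this gene; they are chr5:137981271-137981520 on the plus strand of GRCm38.p6, from RefSeq. Capitals mark the letters found by a search for 4 short motifs on both strands.

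Azgp1 promoter: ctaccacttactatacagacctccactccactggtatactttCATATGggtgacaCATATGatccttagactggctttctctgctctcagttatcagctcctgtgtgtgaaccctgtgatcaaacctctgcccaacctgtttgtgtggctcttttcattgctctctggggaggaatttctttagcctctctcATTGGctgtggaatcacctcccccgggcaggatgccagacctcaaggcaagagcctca

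The capitals are 2 copies of CATATG, a match to the E-box letters CANNTG, at positions -208 and -195 from the gene's start, and 1 copy of ATTGG, the reverse strand of the letters CCAAT, at position -58. CANNTG occurs in 66.2% and CCAAT in 33.8% of the 32851 promoter windows of the same length. The letters AGAACA, a half-site of steroid receptors, and TATAAA, the TATA box, had 0 matches in this window and occur in 16.1% and 12.4% of windows. A match in letters is a description and shows no bound factor.

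Depth, estimated from the size of 1 read in the deposited values, was 7170000 to 14100000 reads per library. Replicate 1 stood apart from replicates 2 and 3 in all 4 groups. Xist, the RNA of the inactive X chromosome, was at log2 10.60 to 11.54 in replicate 1 and at 2.97 to 4.86 in replicates 2 and 3, whereas the Y-linked Ddx3y was at 2.48 to 4.25 in replicate 1 and at 8.95 to 9.62 in the others. By these genes replicate 1 has the pattern of female animals and replicates 2 and 3 that of male animals. Values over the 3 replicates of a group are therefore also given for replicates 2 and 3 alone or within a replicate number.

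Azgp1 was lower in NASH than in control in each of the 6 comparisons of libraries with the same replicate number, and much lower in replicate 1 than in replicates 2 and 3 of every group. In NASH at 24 weeks the deposited log2 values of replicates 1, 2 and 3 were 7.11, 10.64 and 10.59, against 8.58, 12.02 and 12.03 in control at 24 weeks. In NASH at 12 weeks they were 6.71, 10.53 and 10.57, against 8.50, 11.79 and 12.07 in control at 12 weeks. Taken over all 3 libraries, the NASH and control groups overlapped at both times, because replicate 1 of the controls lay below replicates 2 and 3 of NASH; within replicate 1, and within replicates 2 and 3, they did not overlap.

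The reads behind these values were few in replicate 1 and many in the other libraries. Azgp1 had 123, 1282 and 910 reads in NASH at 24 weeks, against 281, 4149 and 3396 reads in control at 24 weeks. It had 94, 756 and 892 reads in NASH at 12 weeks, against 336, 3501 and 4055 reads in control at 12 weeks. The exact Poisson 95% interval was 76.0 to 115 reads for the smallest of these counts, in replicate 1 of NASH at 12 weeks, against 301 to 374 reads in replicate 1 of control at 12 weeks. Such intervals cover counting error only. Ranked by reads per length of transcript, from the most abundant gene down, Azgp1 stood between 995 and 1070 in replicates 2 and 3 of NASH, against 358 to 464 in replicates 2 and 3 of control. In replicate 1 it ranked 7156 and 8035 in NASH at 24 and 12 weeks, against 3576 and 3686 in control at 24 and 12 weeks.

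**Figure D1:**
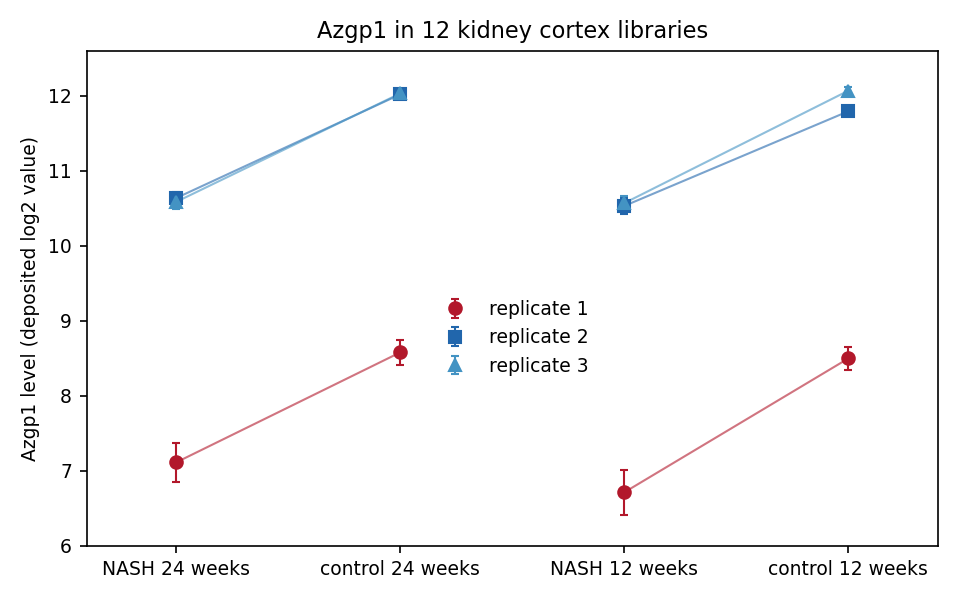
Level of Azgp1 (vertical axis, deposited log2 value) in the 12 libraries by group; red circles are replicate 1, dark blue squares replicate 2 and light blue triangles replicate 3, bars are exact Poisson 95% intervals of the read count, and lines join libraries of NASH and control with the same number. All 6 lines rise toward control, and replicate 1 lies at 6.71 to 8.58, below every other library.

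Set against the control library of the same number and time, Azgp1 in NASH stood at 36.2%, 38.4% and 36.7% of control at 24 weeks and at 29.0%, 41.7% and 35.4% at 12 weeks, for replicates 1, 2 and 3. As log2 differences, NASH minus control, these are -1.47, -1.38 and -1.45 at 24 weeks and -1.79, -1.26 and -1.50 at 12 weeks. The 6 differences had an SD of 0.17, although the levels themselves ran from 6.71 to 12.07. Replicate 1, where Azgp1 is scarce, gave a mean difference of -1.63 over both times, against -1.32 for replicate 2 and -1.47 for replicate 3. As factors, Azgp1 was 2.40-fold (replicate 2 at 12 weeks) to 3.45-fold (replicate 1 at 12 weeks) lower in NASH. These pairs chose the gene, and whether the factor depends on the level of Azgp1 was not tested.

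Over the groups, Azgp1 averaged 9.44 ± 2.02 in NASH and 10.88 ± 1.99 in control at 24 weeks, and 9.27 ± 2.22 in NASH and 10.79 ± 1.99 in control at 12 weeks (log2, SD, n = 3 each). The fitted difference was -1.43 at 24 weeks and -1.52 at 12 weeks, each with a standard error (SE) of 1.43 when replicate numbers are ignored and of 0.11 when each number has its own level in the fit (a replicate block). Averaged over both times, Azgp1 was 2.78-fold lower in NASH (-1.47, SE 1.01, and SE 0.080 with the block). In replicates 2 and 3 alone the averaged difference was -1.40, and leaving out each library in turn moved it between -1.52 and -1.41 with the block. The difference at 24 weeks minus that at 12 weeks was 0.084 (SE 2.03, and SE 0.16 with the block). In bulk RNA, fewer cells that make Azgp1 and less Azgp1 RNA per cell cannot be told apart.

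Among all genes, 889 of 11614 (7.65%) were lower in NASH in all 6 pairs and 671 (5.78%) were higher in all 6. Azgp1 was the only gene whose difference was at least 1 log2 unit below 0 in all 6 pairs, and 0 genes were that far above 0 in all 6. Ranked by the smallest of the 6 decreases, Azgp1 came first with 1.26, and the next was Uhmk1, a protein kinase, with 0.80. The genes after it were Rsbn1 (0.49), Calb1 (0.49), Zbed6 (0.48) and Mgat5 (0.46), of which Calb1 encodes the calcium-binding protein calbindin of the distal tubule. Uhmk1 had the larger averaged difference (-1.84, SE 0.15 with the block), but its 6 values ranged from -2.58 to -0.80. In all, 7 genes had a lower averaged NASH difference than Azgp1, and of them Car3 and Uhmk1 were lower in all 6 pairs; Car3, a carbonic anhydrase abundant in fat and muscle, ranged from -5.55 to -0.031. This ranking used the contrast that chose Azgp1, so it describes the choice and tests nothing.

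**Figure D2:**
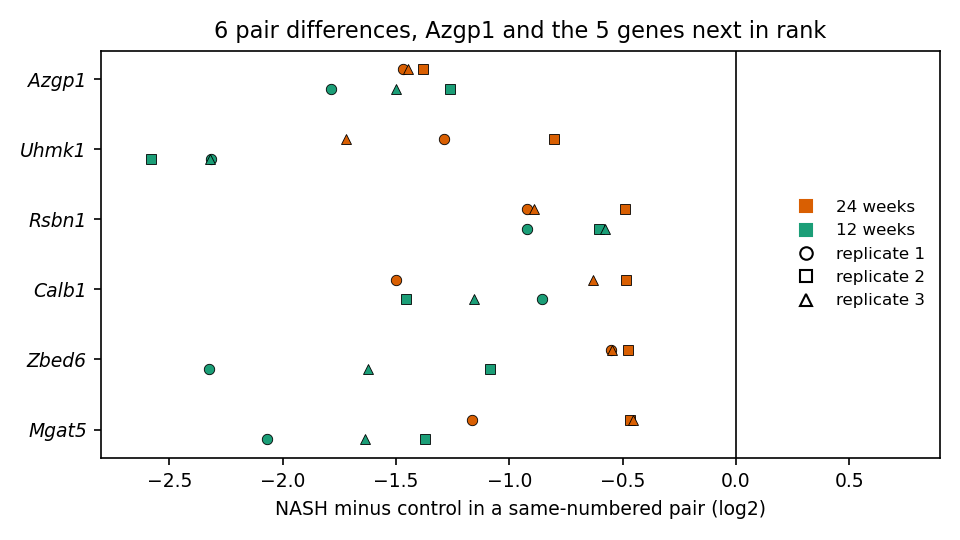
NASH minus control in the 6 same-numbered pairs (horizontal axis, log2) for Azgp1 and the 5 genes next in rank by their smallest decrease; each point is 1 pair, orange at 24 weeks and green at 12 weeks, with the shape giving the replicate number. The Azgp1 points lie between -1.79 and -1.26, whereas those of Uhmk1 run from -2.58 to -0.80.

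The contrast of 24 against 12 weeks was not used to choose Azgp1 and could be tested. Weeks of diet and weeks of CCl4 or corn oil go together in it and cannot be told apart. In NASH, replicates 1, 2 and 3 of Azgp1 were at 7.11, 10.64 and 10.59 at 24 weeks, against 6.71, 10.53 and 10.57 at 12 weeks. The difference, 24 minus 12 weeks, was 0.17 (SE 1.43, limma adjusted p = 0.999), and with the block 0.17 (SE 0.11, adjusted p = 0.588, 95% interval -0.074 to 0.42). In control, 24 minus 12 weeks gave 0.091 (SE 1.43, limma adjusted p = 0.993), and with the block the same difference had an SE of 0.11, an adjusted p of 0.688 and a 95% interval of -0.16 to 0.34. Neither comparison passed, and the intervals with the block leave room for a difference of up to 0.42 in NASH and 0.34 in control. Across all genes limma called 0 (0%) in NASH and 0 (0%) in control without the block, with 553 and 910 genes at an unadjusted p under 0.05; with the block it called 3 (0.0258%) and 20 (0.172%).

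Between replicate numbers Azgp1 differed more than between NASH and control. Replicate 1 had 7.11 in NASH at 24 weeks, against a mean of 10.61 in replicates 2 and 3, and 8.58 in control at 24 weeks, against 12.03. At 12 weeks it had 6.71 in NASH, against 10.55 in replicates 2 and 3, and 8.50 in control, against 11.93. Azgp1 was thus lower in replicate 1 by factors of 11.3, 10.9, 14.3 and 10.8 in NASH at 24 weeks, control at 24 weeks, NASH at 12 weeks and control at 12 weeks. In a fit with a mean for each group and for each replicate number, replicate 1 minus the mean of replicates 2 and 3 was -3.55 (SE 0.084, 11.7-fold lower, 95% interval -3.74 to -3.37, limma adjusted p = 1.61e-09). It was -3.67 in the 6 NASH libraries alone and -3.44 in the 6 control libraries alone. This comparison was set up with the separation of replicate 1 already known, and 5489 of the 11614 genes (47.3%) were called in it, 4330 (37.3%) higher and 1159 (9.98%) lower in replicate 1.

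Azgp1 ranked 21 among the genes lowest in replicate 1. The 20 genes with a larger drop included Slc7a13, an amino acid transporter of the late proximal tubule (-10.21), Slco1a1, an organic anion transporter (-8.20), the cytochromes P450 Cyp2j13 (-7.72), Cyp4a12a (-6.46) and Cyp4b1 (-4.18), and the Y-linked Ddx3y (-5.72) and Eif2s3y (-5.46). Several of these, with Kap, are known for higher expression in male than in female mouse kidney. Of 12 such genes listed as androgen-responsive or sex-biased, 9 were lower and 1 was higher in replicate 1, beside 9.98% and 37.3% of all genes. That list was drawn up with earlier results of these data known. It shares Cyp2j13, Acsm3 and Cyp4b1, among others, with the 20 genes, so its count is not separate support. The NASH differences of these 20 genes, averaged over both times, had no common direction. They ran from -1.14 to 1.69 with a median of 0.066. The times need not be alike. In replicates 2 and 3 at 24 weeks, Slco1a1 was at 11.31 and 12.28 in NASH, against 12.36 and 13.39 in control. At 12 weeks it was at 13.11 and 13.02, against 11.97 and 13.00. At 24 weeks Acsm3, Slc7a13, Cyp2j13, Cyp4a12a and Cyp4b1 were also below control in both replicates, whereas Nat8f5 was lower in 0 of 6 pairs. With the block, limma called 3 of the 20 lower in NASH (Cyp2j13, Cyp4a12a and Cyp4b1), beside 7.36% of all genes, and 2 higher (Ugt2b37, 1.69, and Nat8f5, 0.89), beside 3.03% of all genes. The adjusted p of Cyp2j13 (0.0493) reached 0.312 under another scaling and 0.129 without 1 library, and that of Cyp4b1 (0.0428) reached 0.0804 and 0.0955. Without 1 library, Cyp4a12a reached 0.0938, Ugt2b37 0.0508 and Nat8f5 0.0346. Of the 20 genes, 2 were lower in all 6 pairs (Cyp2j13 and Ddx3y), beside 7.65% of all genes. In replicate 1 Ddx3y was only at 2.48 to 4.25, Slc7a13 at 2.44 to 4.10, Slco1a1 at 3.74 to 5.25 and Cyp2j13 at 3.86 to 4.14. By Xist and the Y-linked genes, sex follows the replicate number in every group. Whether sex or another property of replicate 1 moves with Azgp1 cannot be told apart, since both would follow that number. The labels give neither for a library.

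**Figure D3:**
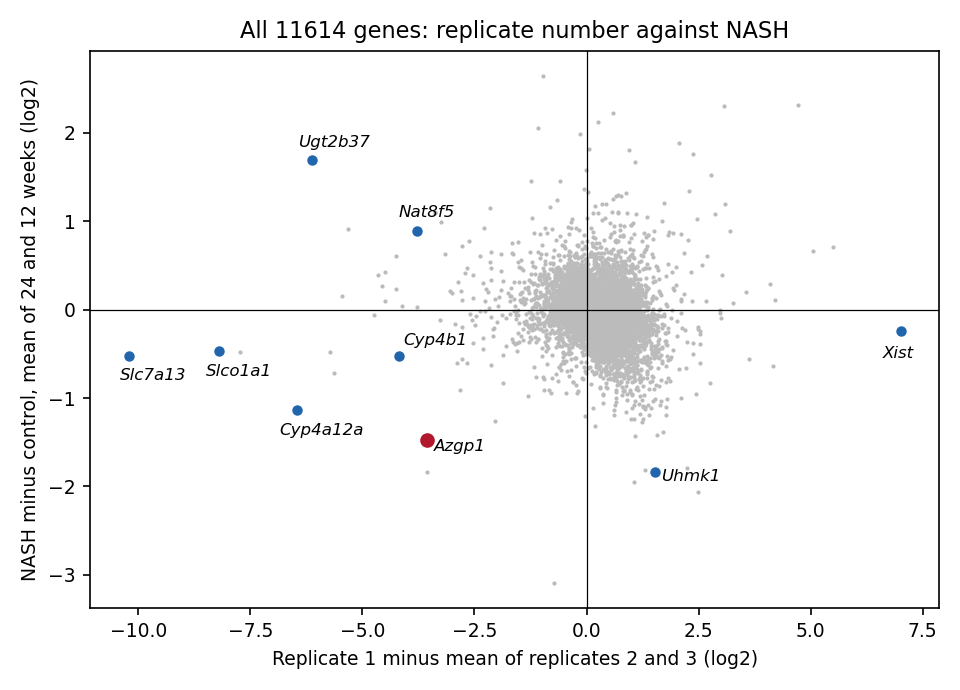
For each of the 11614 genes (grey points), replicate 1 minus the mean of replicates 2 and 3 (horizontal axis, log2) against NASH minus control averaged over 24 and 12 weeks (vertical axis, log2). Azgp1, in red, lies at -3.55 and -1.47, below Cyp4b1 (-4.18 and -0.52); the labelled genes in blue are examples described in the text.

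The genes whose profile over the 12 libraries was most like that of Azgp1 were sought as a description. By the root mean square difference of profiles centred on their own mean, the closest were Cyp4b1 (0.58 log2 units), the vesicle glycoprotein Sv2c (0.59), the fatty acid hydroxylase Cyp4a12b (0.72), the chondroitin sulfotransferase Chst11 (0.74) and the monooxygenase Fmo5 (0.77). All 5 were lower in replicate 1, with differences of -4.18, -2.88, -2.82, -2.94 and -3.27 in the same order, against -3.55 for Azgp1. Their averaged NASH differences were -0.52 for Cyp4b1, -0.60 for Sv2c, -0.91 for Cyp4a12b, -0.16 for Chst11 and -0.12 for Fmo5. The near-identical genes Cyp4a12a and Cyp4a12b can share reads, so their values are uncertain.

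By Pearson correlation over the 12 libraries, among genes at or above the median level, the highest included Ibtk (0.96), Cyp4a12a (0.96), Cyp4b1 (0.96) and Lrmp (0.95), and the lowest included Arl6ip5 (-0.97) and the mitochondrial ADP/ATP carrier Slc25a4 (-0.94). The libraries form separate clusters, replicate 1 and the others, so these values are a measure of likeness and not of a relation. With the mean of each replicate number removed, the correlation was 0.85 for Ibtk, 0.76 for Cyp4a12a and 0.81 for Cyp4b1, against -0.95 for Arl6ip5 and -0.74 for Slc25a4.

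**Figure D4:**
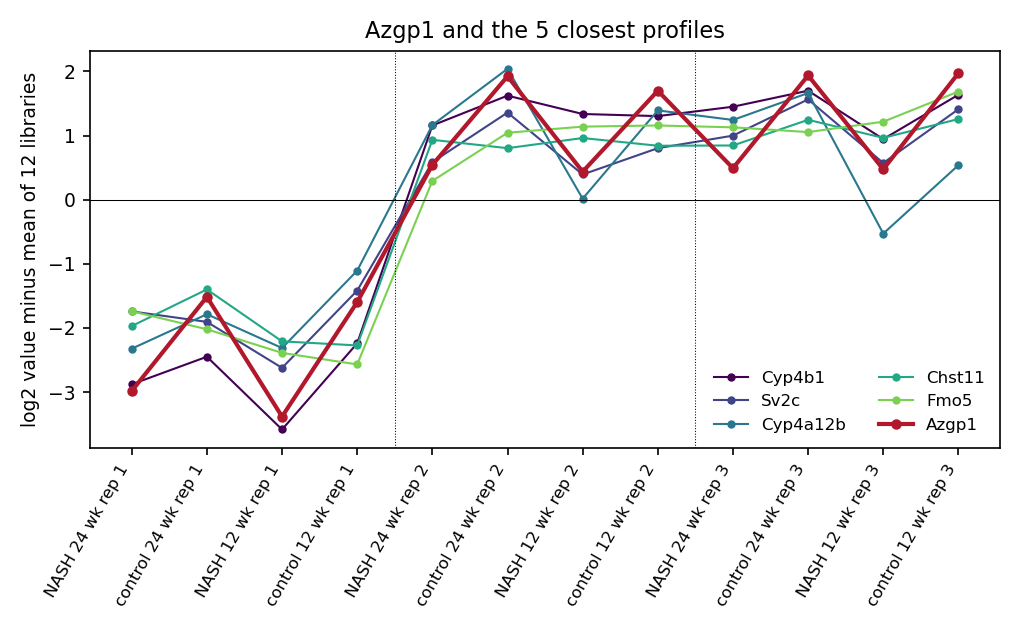
Azgp1 (thick red line) and the 5 genes with the closest profiles, as log2 value minus each gene's mean of 12 libraries (vertical axis). Libraries on the horizontal axis are grouped by replicate number, with dotted lines between the numbers. Within each number the order is NASH and control at 24 weeks, then NASH and control at 12 weeks. All 6 genes dip in replicate 1 of every group; the NASH and control values of Azgp1 are those used to choose it.

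The 3 genes measured next to Azgp1 on each side of chromosome 5 were read in the fit with the block, averaged over both times. Toward higher coordinates, Zkscan1, a zinc finger gene 94.9 kb away, had an averaged difference of -0.32 (SE 0.082, limma adjusted p with the block 0.0343) and was lower in 6 of 6 pairs. Zscan21 (-0.11) and Zfp113 (-0.30), both zinc finger genes too, did not pass. Toward lower coordinates, Mepce (0.099) and Tsc22d4 (-0.0017) did not pass, and Agfg2 was lower (-0.36, SE 0.099, adjusted p with the block 0.0445) in 5 of 6 pairs. Leaving out 1 library raised the adjusted p to 0.0949 for Zkscan1 and 0.121 for Agfg2 at most. Another scaling raised it to 0.0681 for Agfg2, which ended that call, and to 0.0401 for Zkscan1. Of all genes 7.36% were called lower with the block. The nearest of these neighbours on the lower side, Mepce, is 194.8 kb away.

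Lists of genes tied to what zinc-alpha-2-glycoprotein is known for were read in the averaged NASH effect. Across all genes limma called 0 of 11614 (0%) without the block, with 1579 at an unadjusted p under 0.05, so no listed gene passed in that fit. With the block it called 1207 (10.4%), 352 (3.03%) higher and 855 (7.36%) lower, and the median over all genes was -0.036. The counts below are those with the block. Taken by time, limma with the block called 1494 genes at 12 weeks and 1 at 24 weeks, so an averaged call need not hold at 24 weeks. Another scaling ended the call of Gnas (adjusted p = 0.0701), Tgfbr1 (0.0685), Slc3a1 (0.0708), Cyp4b1 (0.0804) and Cyp2j13 (0.312), each from the lists below.

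Of the MHC class I fold family, to which Azgp1 belongs by structure, 13 of 31 listed genes were measured; 2 were higher, 0 were lower and the median was 0.39. The nonclassical heavy chain gene H2-T23 averaged 10.31 in NASH and 9.79 in control (0.52, SE 0.12, adjusted p = 0.0286), and the light chain gene B2m averaged 12.80 in NASH and 12.16 in control (0.64, SE 0.18, adjusted p = 0.0481), both higher in 6 of 6 pairs. Class I heavy chain genes are much alike in sequence and can share reads. Leaving out 1 library raised the largest adjusted p to 0.0803 for H2-T23 and 0.126 for B2m. The summed level of the 10 macrophage markers, cells rich in class I molecules, was 10.72 to 12.28 in NASH and 10.44 to 11.55 in control, with 0 called in either direction and a median of 0.50; their part in these values was not tested.

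Of adrenergic signalling and lipolysis genes, the route reported for its action on fat, 29 of 32 were measured, 1 higher, 1 lower and with a median of -0.13. Gnas, the stimulatory G protein subunit, was higher (0.29, SE 0.075, adjusted p = 0.0348), and Prkar2a, a regulatory subunit of protein kinase A, was lower (-0.49, SE 0.093, adjusted p = 0.0160). Leaving out 1 library raised the adjusted p to 0.0950 for Gnas and 0.0538 for Prkar2a at most.

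Of plasma carrier proteins, secreted like Azgp1, 16 of 22 were measured, 3 higher and 1 lower with a median of 0.44. Apoe, an apolipoprotein, was higher (0.80, SE 0.14, adjusted p = 0.0123, at most 0.0439 without 1 library), as were Ttr, the carrier of thyroid hormone and retinol-binding protein (2.06, SE 0.42, adjusted p = 0.0192), and Apoa2 (0.77, SE 0.21, adjusted p = 0.0450). Apom, which carries sphingosine-1-phosphate and is made in kidney tubules, was lower (-0.65, SE 0.13, adjusted p = 0.0193) in 6 of 6 pairs. Without 1 library the adjusted p reached 0.0554 for Ttr, 0.113 for Apoa2 and 0.0576 for Apom.

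Glucocorticoids are known to raise zinc-alpha-2-glycoprotein in fat cells. Of glucocorticoid-responsive genes and their receptors 21 of 24 were measured, 0 higher and 1 lower with a median of 0.0073; the 1 was Nr3c2, the mineralocorticoid receptor (-0.65, SE 0.16, adjusted p = 0.0302). Of matrix and TGF-beta response genes 27 of 31 were measured, 0 higher and 1 lower with a median of 0.021; the 1 was the receptor Tgfbr1 (-0.26, SE 0.068, adjusted p = 0.0378). Leaving out 1 library raised these to 0.0825 for Nr3c2 and 0.0928 for Tgfbr1 at most. Of circadian clock genes 17 of 19 were measured, 5 higher and 4 lower with a median of 0.087, and these calls include Per3, a repressor arm gene (1.02, SE 0.14, adjusted p = 0.00933), higher in 6 of 6 pairs. The activators Npas2 (-1.32, SE 0.19, adjusted p = 0.00972) and Clock (-0.58, SE 0.090, adjusted p = 0.00998) were lower, in 4 of 6 and 5 of 6 pairs. All 3 held without any 1 library (adjusted p at most 0.0359). Nfil3 was also called lower (-1.24, SE 0.18, adjusted p = 0.00980), but in 3 of 6 pairs. Its difference was -2.86 at 12 weeks and 0.38 at 24 weeks. The hour of dissection is not given in the labels, and its part in the values of Azgp1 was not tested.

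**Figure D5:**
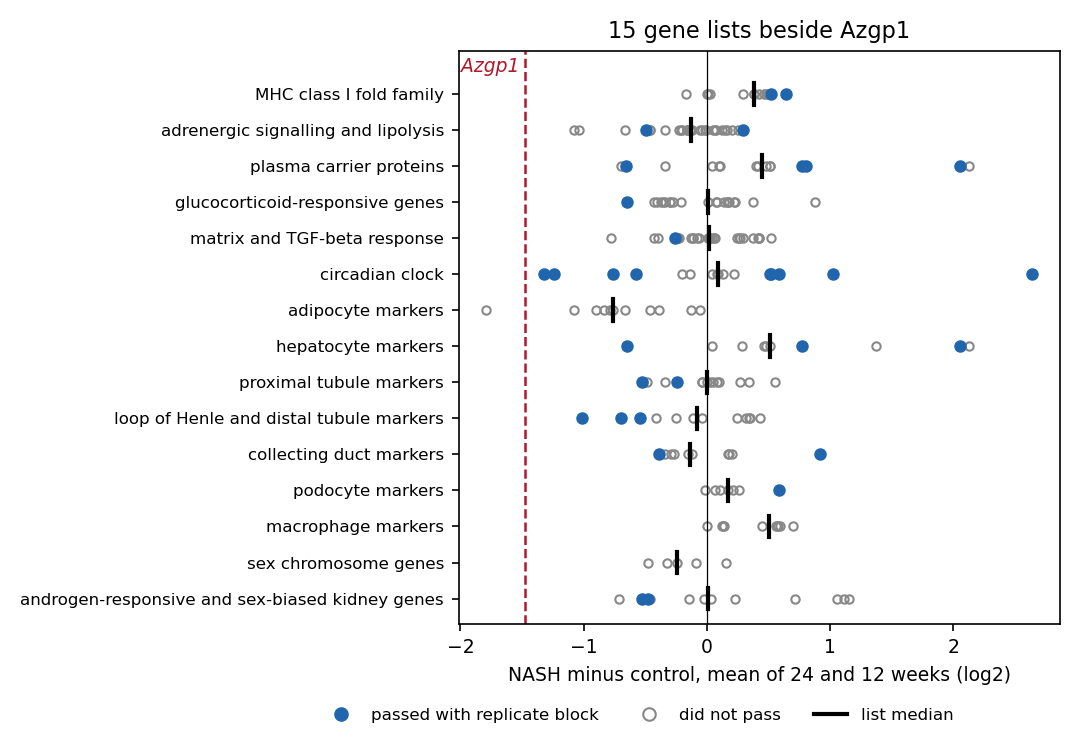
NASH minus control averaged over 24 and 12 weeks (horizontal axis, log2) for the measured genes of 15 lists; filled blue points passed with the replicate block, open points did not, black ticks are list medians and the dashed red line is Azgp1 at -1.47. The list medians lie between -0.76 for adipocyte markers and 0.51 for hepatocyte markers; Azgp1 was chosen on this contrast and its line is drawn for scale only.

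Markers of the cells that could hold Azgp1 RNA were read beside it. The 15 proximal tubule markers were all measured, and their summed log2 level was 18.20 to 18.69 in NASH and 18.04 to 18.75 in control, with pair differences of -0.31 to 0.17. The part of proximal tubule content in the values of Azgp1 was not tested. Of these markers 0 were higher and 2 lower with a median of 0.0039: Cyp4b1 (-0.52, adjusted p = 0.0428) and the cystine transporter subunit Slc3a1 (-0.24, adjusted p = 0.0493). Without 1 library these reached 0.0955 and 0.127.

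The 11 adipocyte markers, from another tissue that makes zinc-alpha-2-glycoprotein, summed to 12.58 to 14.65 in NASH and 12.84 to 15.04 in control. At 24 weeks their sum was lower in NASH in all 3 pairs, by -2.46, -0.33 and -0.41, and at 12 weeks it was higher in all 3, by 0.33, 0.17 and 0.56. With the block 0 of the 11 were called, with a median of -0.76, and the part of fat in the values of Azgp1 at 24 weeks was not tested.

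The hepatocyte markers, of which 11 of 14 were measured, summed to 12.17 to 13.31 in NASH and 12.22 to 13.11 in control, with 2 called higher and 1 lower and a median of 0.51. Those higher were Ttr and Apoa2, already counted among the plasma carrier proteins, and the lower one was Apob (-0.65). Without 1 library the limma adjusted p with the block reached 0.0554 for Ttr, 0.113 for Apoa2 and 0.0346 for Apob. The 12 markers of the loop of Henle and distal tubule had 0 higher and 3 lower with a median of -0.076, namely Calb1 (-1.01, adjusted p = 0.0160), Trpv5 (-0.70, 0.0360) and Wnk1 (-0.54, 0.0411), which reached 0.0512, 0.0871 and 0.107 without 1 library. The 10 collecting duct markers had 1 higher and 1 lower with a median of -0.13, the 7 podocyte markers 1 higher and 0 lower with a median of 0.17, and the 10 macrophage markers 0 in either direction. The single calls were Aqp2 higher (0.92) and Atp6v1g3 lower (-0.38) in the collecting duct list and Cdkn1c higher (0.59) in the podocyte list, and without 1 library their adjusted p reached 0.107, 0.0854 and 0.108. The 5 sex chromosome genes had 0 called, with a median of -0.24, and 2 of the 12 androgen-responsive or sex-biased genes were lower (Cyp4b1 and Cyp2j13), with a median of 0.0078. That last count was 0 under median-of-ratios scaling, 1 under quantile normalization and 0 to 3 when 1 library was left out.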

How the data were processed

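The authors deposited log2 values of 11614 genes for each library, normalized per the file headers. BWA, limma and mouse build mm10 are named in the submitters' processing notes, without versions or roles. For genes with 1 transcript, 97.5% to 100% of values below 60 reads were whole multiples of 1 step per library, within 0.01 steps. Dividing by that step gave reads and depth. The Azgp1 values came out whole within 1.03e-05 reads. Intervals on reads are exact Poisson at 95% and cover counting error only.

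The deposited log2 values were fitted with limma 3.58.1 in R 4.3.3 on 4 group means with a mean-variance trend, and 2-sided tests were adjusted by Benjamini-Hochberg over all genes (called under 0.05). The script was tested on simulated data. Tables used Python 3.11.15, numpy 2.4.6, pandas 2.3.3, scipy 1.17.1 and matplotlib 3.10.9. The same replicate numbers occur in every group: deviations from the group means correlated above 0.1 in all 18 same-numbered pairs (0.19 to 0.74, median 0.52), and on that ground the block was also fitted. Replicates 2 with 3 correlated above 0.1 in all 12 pairs too (0.19 to 0.64), so the check shows replicate 1 apart and does not settle the pairing of 2 and 3.

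The gene, the 15 lists (204 of 242 genes measured), the tests and the rules for named genes were chosen with earlier results of these data known. Named are the 5 genes next in rank by pair differences, the closest profiles, 3 neighbours on each side, and in each list described up to 4 genes with the smallest p, taken from the fit with the block. Genes singled out beside replicate 1 and those with a larger averaged decrease were chosen after their values were seen. No predicted locus is named. A few genes with like profiles are not reported here. Alternatives were the block, quantile and median-of-ratios scaling, a mean log2 filter of 5, a pseudocount of 1, no trend, only the groups compared, replicates 2 and 3 only, and leaving out each library.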

Additional observations from a re-analysis of the deposited data

Results flagged for a closer look

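Nfil3, a repressor tied to the circadian clock, had a NASH effect that differed between the times: 24 minus 12 weeks gave 3.24 (log2, SE 0.37, limma adjusted p with the block 0.0340). Zscan21, near Azgp1 on chromosome 5, was higher in NASH in all 3 pairs at 24 weeks and lower in all 3 at 12 weeks, with effects 0.62 apart. The adipocyte markers Cidec (-2.50), Retn (-5.74), Fabp4 (-2.34) and Adipoq (-5.84) went the other way, lower in NASH in all 3 pairs at 24 weeks and higher in all 3 at 12 weeks. For Zscan21 and these 4 markers the difference between the times did not pass in limma with the block (adjusted p from 0.232 to 0.310).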

How the results depend on the processing

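Azgp1 stayed lower in NASH under every alternative run. The gene was chosen for being lower in these same libraries, so this describes the choice and tests nothing. Leaving out each library moved its difference, without the block, between -2.58 (without control replicate 1) and -0.27 (without NASH replicate 1) at 24 weeks, likewise -2.66 and -0.24 at 12 weeks, and -2.05 and -0.83 for the average; with the replicate block the ranges were -1.47 to -1.38, -1.61 to -1.39 and -1.52 to -1.41. The difference between the times ranged from -1.20 to 1.25 (with the block -0.042 to 0.18), the time difference from -1.11 to 1.34 in NASH and -1.05 to 1.24 in control, which includes changes of sign, and the replicate 1 difference from -3.59 to -3.46. With the replicate block limma called 1494 genes at 12 weeks (6 without it), 1 at 24 weeks (0 without it, 347 at an unadjusted p under 0.05), 1207 averaged (0 without it), 3 for time in NASH (0 without it) and 20 for time in control (0 without it). With replicates 2 and 3 only they were 385, 12, 123, 541 and 755 in the same order. With only the groups compared, 1 gene was called at 12 weeks and 1 for time in control; the averaged count was 5 with quantile normalization and 1 with median-of-ratios scaling. Leaving out each library gave 0 to 11 genes at 12 weeks, 0 to 0 at 24 weeks, 0 to 2 averaged, 0 to 4 for time in NASH and 0 to 3 for time in control. The cause of these moves was not tested. Leaving out libraries or rescaling with the block kept and centring profiles by replicate number were alternatives added after the data were seen. For the averaged effect and the difference between the times, the groups compared are all 12 libraries. Counting error is largest in replicate 1, where Azgp1 has 94 to 336 reads, although these were not the shallowest libraries.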

Other observations

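After the mean of each replicate number was removed from every profile, an ordering added after the data were seen, other genes correlated most with Azgp1. Correlation is not the root mean square difference used above: by that measure Cul1 (0.67) lay farther from Azgp1 than Cyp4b1 (0.50) in these centred profiles. The highest correlations over the 12 libraries, among genes at or above the median level, were those of the ubiquitin ligase scaffold Cul1 (0.98), the phosphatase Ppm1b (0.97) and the NAD-capped RNA hydrolase Nudt12 (0.97), whose averaged NASH differences were -0.15, -0.50 and -0.63. The lowest were those of the ganglioside activator Gm2a (-0.98), the methionine sulfoxide reductase Msra (-0.97) and the extracellular superoxide dismutase Sod3 (-0.97), whose averaged NASH differences were 0.28, 0.39 and 0.34. All 6 pairs were lower in NASH for Cul1, Ppm1b and Nudt12, and higher for Gm2a, Msra and Sod3. These values describe likeness only, since the NASH contrast itself makes up most of a centred profile.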
